A study of Homo sapiens with 12 samples.

Results

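The genes described here encode heat shock proteins, their DNAJ and BAG cochaperones and the heat shock factors HSF1 and HSF2. They were taken by name from the table of all genes: symbols of the DNAJA, DNAJB and DNAJC families, HSPA and HSPB symbols, HSPH1, HSPD1, HSPE1, HSP90AA1, HSP90AB1, HSF1, HSF2 and BAG1 to BAG6, without HSPA5 and DNAJB9, which belong to the endoplasmic reticulum. Of 58884 genes in the table, 76 had such a name, and 68 of them were kept because at least 4 of the 12 libraries gave them a value of 10 or more, under 67 symbols because HSPA14 is listed under both ENSG00000187522 and ENSG00000284024. Most encode proteins of the cytosol and nucleus, but the naming rule also takes chaperones of mitochondria, such as HSPA9, HSPD1 and DNAJC19, and of the endoplasmic reticulum, such as DNAJB11, DNAJC3 and DNAJC10, so the set is wider than a cytosolic one.

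RNA was sequenced from KYSE70, an established human esophageal squamous cell carcinoma line, in 3 groups of 4 libraries. The groups were cells given 20 nM mitoxantrone (MIT in the plots), a cytotoxic anthracenedione that blocks topoisomerase II on DNA; cells given 10 µM pyrimethamine (PYR), an antifolate; and cells without treatment (control). Each drug was given for 72 h, and the series title calls both drugs NRF2 inhibitors. The labels give no vehicle for the control cells and do not say whether replicates were grown as separate cultures, so each p-value measures only the spread between these samples, which may be technical. The comparisons ask how chaperone genes stood under each drug relative to untreated cells, and under one drug relative to the other.

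Chaperones bind unfolded or partly folded proteins and help them fold, assemble or be degraded. HSP70 proteins work in cycles of ATP binding and hydrolysis: DNAJ proteins, also called HSP40, bring substrates and start hydrolysis through their J domain, while HSP110 and BAG proteins release the nucleotide. HSP90 takes partly folded clients such as kinases and steroid receptors from HSP70, chaperonins enclose a folding protein in a chamber, and small heat shock proteins hold unfolded proteins without ATP. When unfolded proteins build up, HSF1 binds heat shock elements in promoters and raises transcription of many of these genes, and tumor cells often depend on this system.

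Reads counted in genes numbered 47.5 M to 94.5 M per library, namely 54.4 M to 74.3 M under mitoxantrone, 59.5 M to 72.5 M under pyrimethamine and 47.5 M to 94.5 M in the control. Values are normalized counts, which are reads divided by 1 factor per library. Mitoxantrone replicate 1 stood apart from its group, with a chi-square per degree of freedom of 29.45 to 43.18 against the other mitoxantrone libraries, whereas all other pairs within a group lay between 6.305 and 15.84. Of the squamous markers, KRT5 (206300 to 279800 normalized counts), KRT6A (42760 to 104200), TP63 (12230 to 22500), EPCAM (18110 to 24290) and CDH1 (8913 to 21740) were abundant in every library and KRT14 was low (100.7 to 186.8). Of 7 markers of immune cells, fibroblasts and endothelium, CD3E and CD68 did not exceed 2.047 normalized counts in any library, PECAM1 6.898, PDGFRB 19.45 and PTPRC 29.37. Several markers differed between groups, and for CDH1, TP63, KRT6A, EPCAM and COL1A1 no groups overlapped. EPCAM held 22750 to 24290 under mitoxantrone, 18110 to 19140 under pyrimethamine and 20920 to 21060 in the control. CDH1 held 8913 to 11710 under mitoxantrone, 20550 to 21740 under pyrimethamine and 18060 to 20090 in the control, TP63 22040 to 22500, 12230 to 13200 and 16440 to 17410 in the same order, and KRT6A 42760 to 59460, 93330 to 104200 and 64490 to 68930. PTPRC was at 0 to 7.422, 17.4 to 29.37 and 1.318 to 11.22, where only pyrimethamine was separate. COL1A1 was at 3872 to 5209 under mitoxantrone, 10520 to 11850 under pyrimethamine and 14550 to 15350 in the control. VWF was at 174 to 246.1, 1036 to 1151 and 940.6 to 1055 in the same order, where only mitoxantrone was separate. The part of these markers in the results was not tested.

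Under mitoxantrone, both HSP90 genes, both mitochondrial chaperonin genes, the mitochondrial HSP70 gene HSPA9 and the cochaperone gene BAG1 rose, while DNAJC12, DNAJC28, DNAJC22, HSPA6, HSPB3 and DNAJB2 fell. Of the 68 kept genes, 27 were higher than in the control, 25 lower and 16 not called at an adjusted p under 0.05 (limma), beside 69.3% of the 16950 genes tested that were called in this comparison, 33.5% higher and 35.8% lower. The median log2 change of the kept genes was 0.01 and that of all genes tested -0.00797. With libraries rescaled to the same total, the median of all genes tested lay at -0.108, and 20 kept genes were higher and 30 lower. Of the 16950 genes tested, 4420 were higher and 7211 lower with this rescaling. Changes of at least 2-fold, called or not, were found for 7 kept genes, all lower, beside 18.17% of all genes tested in either direction. Among the 7 were DNAJA4 and DNAJB13, which passed the filter on low values only through pyrimethamine and control libraries. DNAJC12 and HSPA6 were also among the 7, and their mitoxantrone libraries alone would not have met the filter. For all of these named genes a lower value under mitoxantrone was favoured by the choice of genes. In bulk RNA, a lower level per cell and fewer cells that express a gene cannot be told apart, here or in what follows.

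Under pyrimethamine HSPA9, BAG1, HSP90AB1, HSPA8 and HSPH1 fell, while HSF1, BAG3, HSPB1, HSPB3, DNAJB1, DNAJB2, DNAJB4 and DNAJB5 rose. Of the 68 kept genes, 13 were higher than in the control, 28 lower and 27 not called, beside 53.3% of all genes tested that were called, 26.4% higher and 26.9% lower. Their median log2 change was -0.07, against 0.00183 over all genes tested. With only the 8 libraries compared in the fit, 21 were higher and 31 lower, and without mitoxantrone replicate 1, 19 were higher and 30 lower. Over the 16950 genes tested, the first run gave 4965 higher and 4845 lower, and the second 4767 and 4806. HSPB6 was the 1 kept gene with a change of at least 2-fold, beside 7.457% of all genes tested.

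Between the drugs, 34 kept genes were higher under mitoxantrone than under pyrimethamine, 24 lower and 10 not called, beside 76.4% of all genes tested that were called, 36.9% higher and 39.5% lower. The median log2 change was 0.12, against -0.0238 over all genes tested. With upper-quartile rescaling and with quantile normalization 28 kept genes were higher and 27 lower. Of the 16950 genes tested, 5710 were higher and 7243 lower with upper-quartile rescaling, and 6794 and 6142 with quantile normalization. In the values as deposited 14 kept genes changed at least 2-fold, beside 25.46% of all genes tested. The mitoxantrone and control libraries did not overlap for 47 kept genes, the pyrimethamine and control libraries for 42 and the mitoxantrone and pyrimethamine libraries for 52, beside 60.9%, 51.1% and 68.8% of all genes tested. Among those with a mean of 1000 to 10000 normalized counts, 71.43% of 42 were called for mitoxantrone against the control, beside 77.32% of the 6861 genes tested in the same range. For pyrimethamine the shares were 66.67% and 66.97%, and between the drugs 83.33% and 83.14%. Among those with a mean of 10000 or more, 91.67% of 12 were called for mitoxantrone, beside 80.89% of 1329 genes tested, 66.67% beside 70.13% for pyrimethamine and 91.67% beside 84.27% between the drugs. The 3 comparisons share their groups of libraries pairwise and are not independent of each other.

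**Figure D1:**
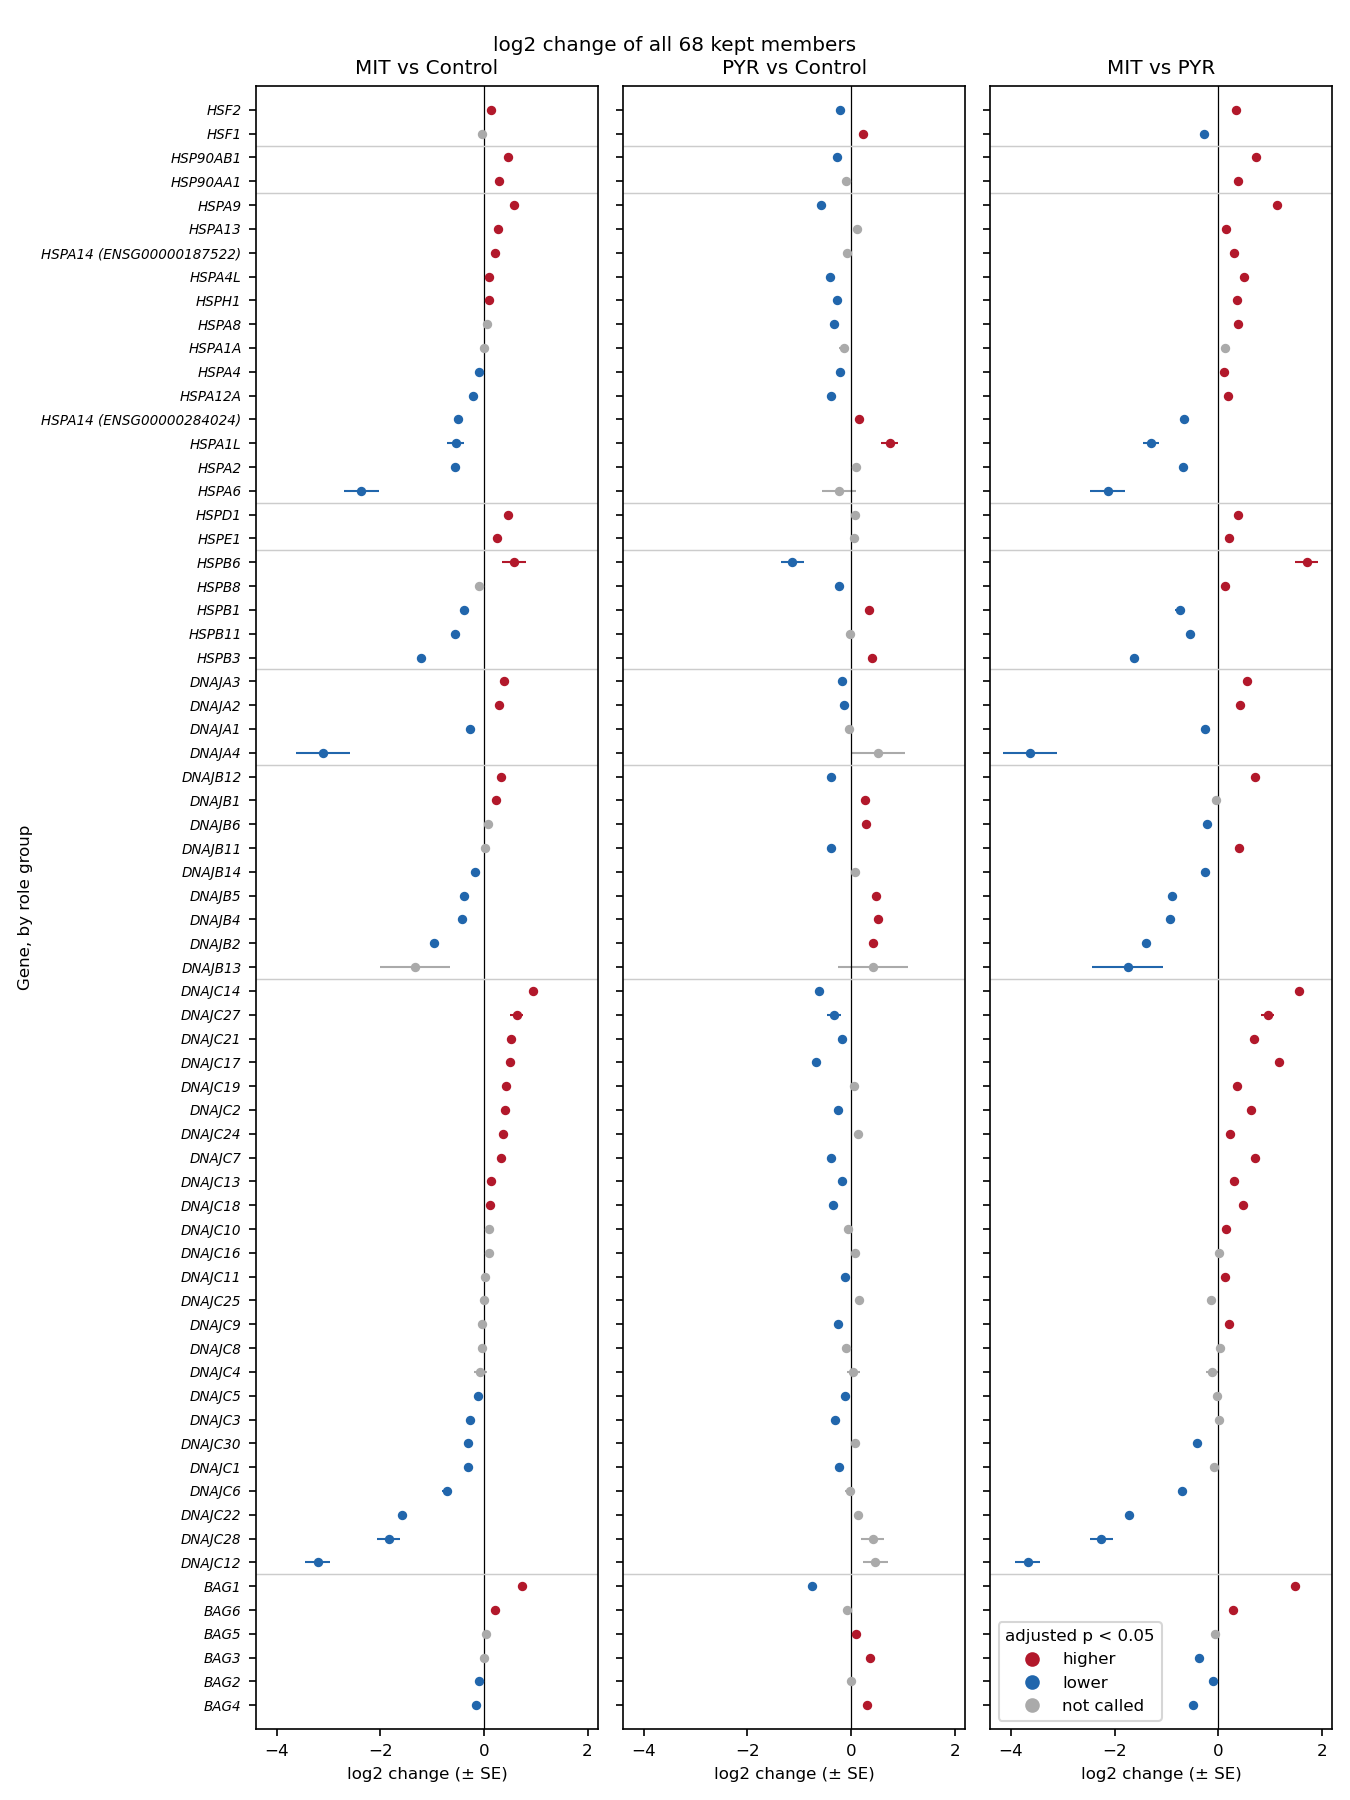
Log2 change of each of the 68 kept genes (± standard error, limma, 4 libraries per group) for mitoxantrone against the control, pyrimethamine against the control and mitoxantrone against pyrimethamine, grouped by role, with red for higher, blue for lower and grey for not called. DNAJC12 and DNAJA4 lie farthest to the left under mitoxantrone, at -3.21 and -3.11. For both, the mitoxantrone libraries alone would not have met the filter on low values, and DNAJA4 passed only through the other groups. Under pyrimethamine no DNAJC gene is red.

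Per kilobase of merged exon, HSP90AB1 had the highest level of the set under mitoxantrone (52671 normalized counts per kb) and in the control (38456), and HSPB1 under pyrimethamine (33854). In the mitoxantrone libraries HSPA8 (35755) and HSP90AA1 (35647) followed, with overlapping ranges, and then HSPD1 (21197) and HSPB1 (20403), whose ranges also overlapped. In the pyrimethamine libraries the range of HSPB1 overlapped that of HSP90AB1 (31656), and HSPA8 (27423) overlapped HSP90AA1 (27161). In the control HSPA8 (34416), HSP90AA1 (29006), HSPB1 (26441) and HSPD1 (15368) came after HSP90AB1, and the range of HSPB1 covered that of HSP90AA1. The kept genes together took 1.55% ± 0.0189 of reads under mitoxantrone, 1.281% ± 0.0151 under pyrimethamine and 1.46% ± 0.0161 in the control (SD, n = 4 each). The ranges of these shares did not overlap between any of the groups, with 1.527% to 1.571%, 1.267% to 1.3% and 1.442% to 1.478% in the same order. Such sums are weighted toward abundant genes. In the same order HSP90AB1 took 0.2345%, 0.1453% and 0.1836% of reads on average, and HSP90AA1 0.2796%, 0.2195% and 0.2439%. HSPD1 took 0.1344%, 0.106% and 0.1045%, and HSPA8 0.2588%, 0.2048% and 0.2674%.

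**Figure D2:**
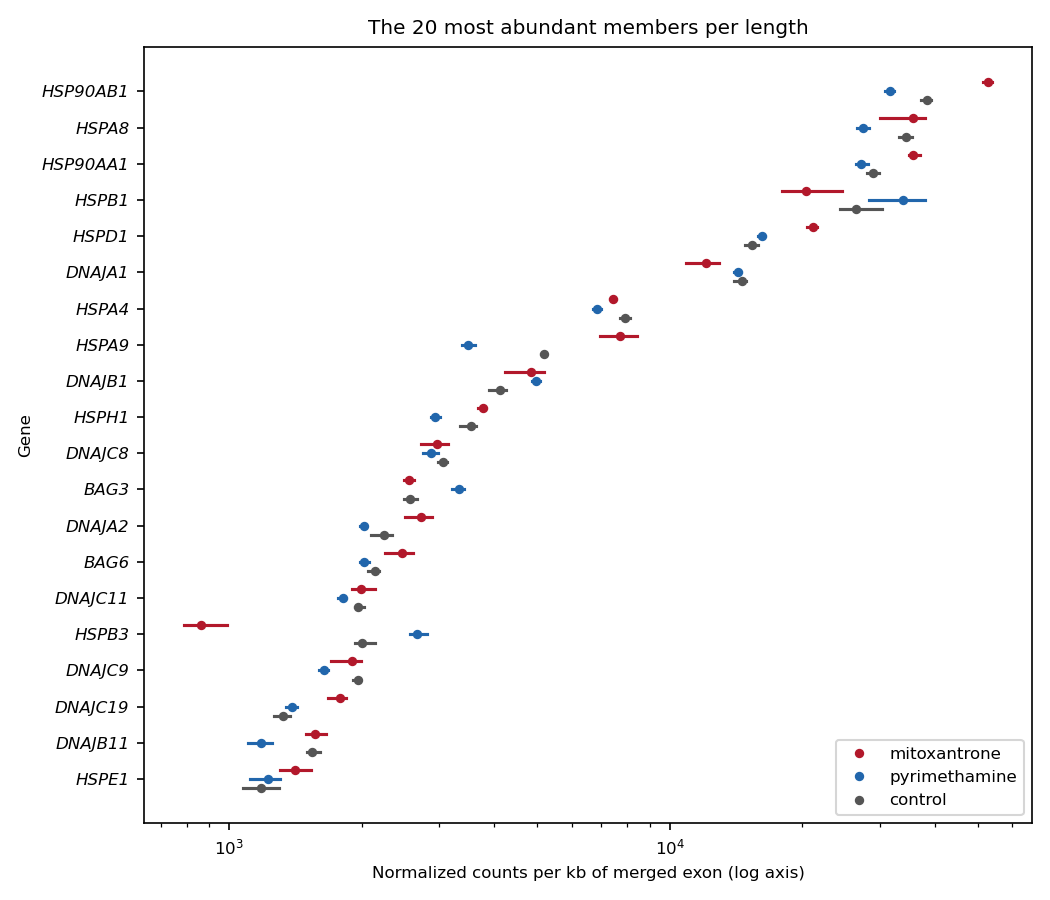
Level of the 20 most abundant kept genes in normalized counts per kilobase of merged exon (log axis) under mitoxantrone, pyrimethamine and in the control, as the mean (point) and range (bar) of 4 libraries. HSP90AB1, HSPA8, HSP90AA1, HSPB1 and HSPD1 hold the 5 highest levels in every group, and HSPB3 shows the widest ratio between groups among the genes plotted, with 863 under mitoxantrone, 2664 under pyrimethamine and 2001 in the control.

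The heat shock factors moved apart under pyrimethamine. HSF1, the transcription factor that drives the heat shock response (chromosome 8, 144291591 to 144314722 on GRCh38), held 4132, 4318, 4056 and 4123 normalized counts in the mitoxantrone libraries, 5109.7, 5039, 5129.8 and 4887 in the pyrimethamine libraries and 4389, 4334, 4105 and 4254 in the control libraries, in the order of replicates 1 to 4. All pyrimethamine libraries lay above the others, and the mitoxantrone and control libraries overlapped. HSF1 rose under pyrimethamine by a log2 change of 0.24 (SE 0.0369, adjusted p = 1.17e-05), 1.18-fold, and had -0.04 under mitoxantrone (adjusted p = 0.359). With libraries rescaled to the same total HSF1 passed the test under mitoxantrone at -0.14, and with upper-quartile rescaling at -0.09. HSF2, a relative that can form mixed trimers with HSF1 (chromosome 6, 122399546 to 122433119), held 1179.5, 1173, 1243 and 1278 normalized counts in the mitoxantrone libraries, 983, 940.1, 968 and 937 in the pyrimethamine libraries and 1154, 1072, 1138 and 1080.4 in the control libraries. The pyrimethamine libraries were the lowest and the mitoxantrone libraries the highest, without overlap. HSF2 fell under pyrimethamine with a log2 change of -0.21 (SE 0.0526, adjusted p = 0.00163). Under mitoxantrone it had 0.13 (SE 0.0526, adjusted p = 0.0301), a call that was lost under all 3 rescalings and without control replicate 2 or 4 or mitoxantrone replicate 3 or 4. Mitoxantrone against pyrimethamine gave -0.28 for HSF1 and 0.35 for HSF2, both called.

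Both cytosolic HSP90 genes rose under mitoxantrone. HSP90AB1, the constitutive HSP90 beta (chromosome 6, 44246166 to 44253888), held 160363, 156054, 158015 and 153405 normalized counts in the mitoxantrone libraries, 96130.3, 94512, 91838 and 94866 in the pyrimethamine libraries and 110703, 117098, 115462 and 115126 in the control libraries. The groups did not overlap, with mitoxantrone highest and pyrimethamine lowest. HSP90AB1 was 1.37-fold higher under mitoxantrone than in the control, a log2 change of 0.45 (SE 0.0379, adjusted p = 7.90e-10), and 1.22-fold lower under pyrimethamine than in the control, -0.28 (SE 0.0379, adjusted p = 2.23e-06). HSP90AA1, the stress-inducible HSP90 alpha (chromosome 14, 102080738 to 102139699), held 194090.0, 184712, 183358 and 186135 normalized counts in the mitoxantrone libraries, 139107, 147661, 139726 and 143677 in the pyrimethamine libraries and 147276, 154649, 156746 and 150233 in the control libraries. The mitoxantrone libraries lay above all others, while pyrimethamine and control libraries overlapped at the edge. Its log2 change was 0.30 (SE 0.0413, adjusted p = 1.62e-06) under mitoxantrone and -0.09 (SE 0.0413, adjusted p = 0.0585) under pyrimethamine. The pyrimethamine value passed the test in 9 alternatives, among them edgeR and DESeq2, at -0.15 after rescaling to equal totals, at -0.195 under quantile normalization and at -0.0948 without mitoxantrone replicate 1. Against pyrimethamine, mitoxantrone gave 0.73 for HSP90AB1 and 0.39 for HSP90AA1. Under quantile normalization the rises against the control were smaller, 0.20 for HSP90AB1 and 0.13 for HSP90AA1, and both were still called.

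Since HSF1 acts through heat shock elements, the promoter windows of the kept genes were searched for them. An element was counted as at least 3 adjoining units of 5 bases that alternate between NGAAN and NTTCN, on either strand. RefSeq windows on GRCh38.p14, from 250 bases before to 50 bases after each annotated start, were matched by symbol for 60 of 67 kept symbols, in 82 windows since some genes have several starts. BAG4, DNAJC1, DNAJC22, DNAJC24, HSF1, HSPA14 and HSPB11 had none in the table. Such an element was in 7 of the 82 windows (8.54%), beside 168 of 35116 windows in the whole table (0.478%). The shorter form of GAA and TTC in either order with 2 bases between them, which lies within the longer element too, was in 21 windows (25.6%), beside 13.5% of all windows. The windows with an element belonged to HSP90AA1, HSP90AB1, HSPA8, HSPA6, DNAJA1, DNAJB6 and HSPD1. The stretches that hold it are shown because they are the sites in these windows that match what HSF1 is known to bind; they are read 5′ to 3′ on the gene's strand, with the GAA and TTC cores of the element in capitals.
HSP90AA1: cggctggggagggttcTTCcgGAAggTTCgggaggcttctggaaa
HSP90AB1: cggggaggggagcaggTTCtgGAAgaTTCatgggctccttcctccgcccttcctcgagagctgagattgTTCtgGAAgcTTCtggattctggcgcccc
HSPA8: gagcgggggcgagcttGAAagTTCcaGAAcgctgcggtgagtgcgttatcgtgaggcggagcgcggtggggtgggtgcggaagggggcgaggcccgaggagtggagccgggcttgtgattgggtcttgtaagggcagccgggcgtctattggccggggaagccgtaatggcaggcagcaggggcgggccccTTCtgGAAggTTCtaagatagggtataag
HSPA6: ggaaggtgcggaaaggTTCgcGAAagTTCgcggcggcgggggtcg
DNAJA1: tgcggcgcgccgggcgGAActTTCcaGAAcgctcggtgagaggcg
DNAJB6: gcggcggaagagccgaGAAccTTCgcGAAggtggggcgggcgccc
HSPD1: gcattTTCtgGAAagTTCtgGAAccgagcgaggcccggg
They lie at chr14:102087104-102087148 (minus strand), chr6:44247762-44247859 (plus), chr11:123062163-123062382 (minus), chr1:161524450-161524494 (plus), chr9:33025260-33025304 (plus), chr7:157336857-157336901 (plus) and chr2:197500052-197500090 (minus). HSPD1 had 4 adjoining units and the others 3, and the stretches of HSP90AB1 and HSPA8 hold a pair of elements each. The 7 genes went different ways. Under mitoxantrone HSP90AA1, HSP90AB1 and HSPD1 were higher, HSPA6 and DNAJA1 lower, and HSPA8 and DNAJB6 not called, and under pyrimethamine DNAJB6 was higher, HSP90AB1 and HSPA8 lower and 4 not called. Of all genes tested, 33.5% were higher and 35.8% lower under mitoxantrone, and 26.4% and 26.9% under pyrimethamine. Genes with and without an element were not tested against each other. Of the 53 genes with a window but no element, 22 were higher, 18 lower and 13 not called under mitoxantrone, and 9, 25 and 19 under pyrimethamine. Among these 53 are HSPA1A, DNAJB1 and BAG3, described below as inducible by stress, and HSPE1, whose window does not reach the HSPD1 element. A gene without a match may hold an element outside its window or of another form. A match of letters is a description of the window and does not show binding.

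HSP70 and HSP110 genes went both ways in each comparison. Of all genes tested, 69.3% were called for mitoxantrone, 53.3% for pyrimethamine and 76.4% between the drugs. For HSP70 and HSP110 genes the shares were 84.62%, 61.54% and 92.31%. Of 13 kept, 5 were higher, 6 lower and 2 not called under mitoxantrone; 2, 6 and 5 under pyrimethamine; and 8, 4 and 1 between the drugs. Under mitoxantrone 2 were higher and 6 lower after rescaling to equal totals, 3 and 6 with upper-quartile rescaling and 3 and 7 under quantile normalization, and between the drugs 5 were higher with upper-quartile rescaling. The counts over the 16950 genes tested moved too. Under mitoxantrone they were 4420 higher and 7211 lower, 5058 and 6571, and 6134 and 5551 in the same order of rescalings. Between the drugs 5710 were higher with upper-quartile rescaling. HSPA8, the constitutive HSC70 and the most abundant HSP70 here (chromosome 11, 123057489 to 123063230), held 145373, 182886, 181409 and 183833 normalized counts in the mitoxantrone libraries, 135992, 129171, 129369 and 137361 in the pyrimethamine libraries and 164497, 170139, 172306 and 160581 in the control libraries. Pyrimethamine libraries were the lowest, and mitoxantrone replicate 1 lay well below the other mitoxantrone libraries and below the control. HSPA8 fell under pyrimethamine with -0.33 (SE 0.0603, adjusted p = 9.65e-05) and had 0.05 (SE 0.0603, adjusted p = 0.483) under mitoxantrone. Without mitoxantrone replicate 1 the mitoxantrone value was 0.13 (adjusted p = 0.00361), whereas it turned to -0.05 after rescaling to equal totals and to -0.26 (adjusted p = 1.10e-04) under quantile normalization. Between the drugs HSPA8 was 1.3-fold higher under mitoxantrone, a log2 change of 0.38 (SE 0.0603, adjusted p = 8.01e-06).

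The HSP110 proteins release ADP from HSP70. HSPH1, their best-known gene (chromosome 13, 31134974 to 31162388), held 32183, 31725, 31619.8 and 30767 normalized counts in the mitoxantrone libraries, 24628, 25204, 24522 and 24092 in the pyrimethamine libraries and 28082, 30371, 30554 and 29462 in the control libraries. The pyrimethamine libraries lay below all others, and the mitoxantrone libraries were narrowly above the control. HSPH1 fell under pyrimethamine with -0.27 (SE 0.0349, adjusted p = 1.50e-06). Under mitoxantrone it had 0.09 (SE 0.0349, adjusted p = 0.0229), but -0.01 after rescaling to equal totals and -0.08 under quantile normalization, and the call as higher was also lost with upper-quartile rescaling and without control replicate 1. HSPA4L, another member of this family (chromosome 4, 127781821 to 127840733), held 11131, 10851, 11216 and 11148 normalized counts in the mitoxantrone libraries, 7732, 7959, 7696 and 7903 in the pyrimethamine libraries and 10827, 10462, 10397 and 9721 in the control libraries. Its pyrimethamine libraries were separated from the rest. HSPA4L fell under pyrimethamine with -0.40 (SE 0.0356, adjusted p = 5.46e-09), and its call under mitoxantrone, 0.10 (SE 0.0356, adjusted p = 0.017), was lost under all 3 rescalings and without control replicate 4, with a turned sign when libraries had the same total. HSPA4, the third HSP110 gene, had log2 changes of -0.09 under mitoxantrone and -0.21 under pyrimethamine, both called, although the mitoxantrone call was lost without control replicate 2 or 3.

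HSPA9, the HSP70 of the mitochondrial matrix (chromosome 5, 138553756 to 138575724), had the widest gap between the drugs among the HSP70 and HSP110 genes that averaged over 1000 normalized counts under mitoxantrone. It held 57305, 69529.8, 63551 and 64011 normalized counts in the mitoxantrone libraries, 28770.2, 29857, 27891 and 28476 in the pyrimethamine libraries and 42984, 43161, 42119.7 and 42677 in the control libraries. The groups were far apart, with every mitoxantrone library above and every pyrimethamine library below the control. HSPA9 was 1.49-fold higher under mitoxantrone, a log2 change of 0.57 (SE 0.045, adjusted p = 3.25e-10), and 1.49-fold lower under pyrimethamine, -0.57 (SE 0.045, adjusted p = 1.01e-09). Mitoxantrone exceeded pyrimethamine by 2.21-fold, 1.14 (SE 0.045, adjusted p = 1.22e-15). Under quantile normalization HSPA9 had 0.29 under mitoxantrone and -0.69 under pyrimethamine, both called.

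The stress-inducible HSP70 genes differed in their calls. HSPA1A, the classic inducible HSP70 gene (chromosome 6, 31815464 to 31817946), held 346, 379, 317 and 301 normalized counts in the mitoxantrone libraries, 307, 304, 292 and 311 in the pyrimethamine libraries and 321, 319.8, 354 and 339 in the control libraries. The mitoxantrone libraries overlapped both other groups, and the pyrimethamine libraries did not overlap the control. No comparison was called, with 0.01 under mitoxantrone, -0.13 under pyrimethamine and 0.14 between the drugs. HSPA1A was called between the drugs under quantile normalization, at 0.25 (limma adjusted p = 0.0147). Its near-identical neighbour HSPA1B, which the naming rule does not take, held 6186, 7137, 6363 and 5983 normalized counts in the mitoxantrone libraries, 4549, 4383, 4399 and 4209.5 in the pyrimethamine libraries and 4311, 4238, 4511 and 4605 in the control libraries, and its log2 change was 0.54 (SE 0.0476, adjusted p = 2.09e-09) under mitoxantrone and -0.01 under pyrimethamine (adjusted p = 0.881). Of the stretches of 50 bases in the transcripts, HSPA1A shares 71.32% and HSPA1B 73.46% with other genes, so reads could be split between them in the counting. Summed over both genes, the libraries held 6284 to 7516 normalized counts under mitoxantrone, 4521 to 4856 under pyrimethamine and 4557 to 4943 in the control, so mitoxantrone lay above the other groups, which overlapped. HSPA6, an HSP70 gene that is silent until strong stress in most cells (chromosome 1, 161524540 to 161526910), held 17.6, 38.2, 6.18 and 18.8 normalized counts in the mitoxantrone libraries, 85.4, 62.1, 91.1 and 75.6 in the pyrimethamine libraries and 99.2, 94.5, 90.3 and 83 in the control libraries. Every mitoxantrone library lay below all others, and pyrimethamine and control libraries overlapped. HSPA6 fell under mitoxantrone with -2.37 (SE 0.331, adjusted p = 1.83e-06) and had -0.23 under pyrimethamine (adjusted p = 0.582). It shares 45.52% of its 50-base stretches with other genes.

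HSPA1L, a relative of HSPA1A best known from testis (chromosome 6, 31809619 to 31815065), held 71.3, 90.6, 101 and 76.2 normalized counts in the mitoxantrone libraries, 209, 198, 201 and 226 in the pyrimethamine libraries and 126, 131, 90.3 and 155 in the control libraries. Its pyrimethamine libraries lay above all others, and mitoxantrone and control libraries overlapped. HSPA1L rose 1.68-fold under pyrimethamine, a log2 change of 0.75 (SE 0.161, adjusted p = 4.97e-04), and fell under mitoxantrone with -0.55 (SE 0.161, adjusted p = 0.00461), a call lost under quantile normalization. HSPA2, another HSP70 gene known from testis, averaged 591 ± 45.1 normalized counts under mitoxantrone, 941 ± 72.9 under pyrimethamine and 875 ± 30.8 in the control (SD, n = 4 each). It fell under mitoxantrone with -0.57 and had 0.10 under pyrimethamine. HSPA14 encodes an HSP70 bound to ribosomes and has 2 identifiers, which pointed opposite ways under mitoxantrone. The values were 0.21 for ENSG00000187522, lost when libraries had the same total, and -0.51 for ENSG00000284024. Exons of other genes, each other included, cover 17.4% of those of the first and 9.34% of those of the second. Whether both identifiers stand for the same protein was not examined. How reads in their shared exons were treated is not given in the sources used here. HSPA13, an HSP70 of the microsomal compartment, rose under mitoxantrone by 0.26, and HSPA12A, a distant relative, fell under both drugs, with -0.20 under mitoxantrone and -0.40 under pyrimethamine.

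The mitochondrial chaperonin rose under mitoxantrone. HSPD1, which encodes the HSP60 ring (chromosome 2, 197486581 to 197516737), held 87043, 91758, 89900.3 and 91223 normalized counts in the mitoxantrone libraries, 69018, 69056, 67358 and 69827 in the pyrimethamine libraries and 62899, 67490.1, 66861 and 63694 in the control libraries. The mitoxantrone libraries lay far above the rest, which overlapped. HSPD1 was 1.38-fold higher under mitoxantrone, 0.46 (SE 0.0371, adjusted p = 3.94e-10), and 0.08 (SE 0.0371, adjusted p = 0.0843) was its value under pyrimethamine. HSPD1 was called higher under pyrimethamine in DESeq2, with only the 8 libraries compared and without mitoxantrone replicate 1. HSPE1, which encodes its lid HSP10 and starts from the same promoter region in the opposite direction (chromosome 2, 197499994 to 197503457), held 3028, 2571, 2697 and 2851 normalized counts in the mitoxantrone libraries, 2583, 2201, 2392 and 2515 in the pyrimethamine libraries and 2196, 2127, 2447 and 2559 in the control libraries. Mitoxantrone libraries exceeded all control libraries by a small margin and overlapped pyrimethamine. HSPE1 rose under mitoxantrone by 0.26 (SE 0.063, adjusted p = 0.00105) and had 0.06 under pyrimethamine (adjusted p = 0.473). Exons of other genes cover 23.9% of those of HSPE1. Under quantile normalization the mitoxantrone values were 0.12 for HSPD1 and 0.21 for HSPE1, both called.

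**Figure D3:**
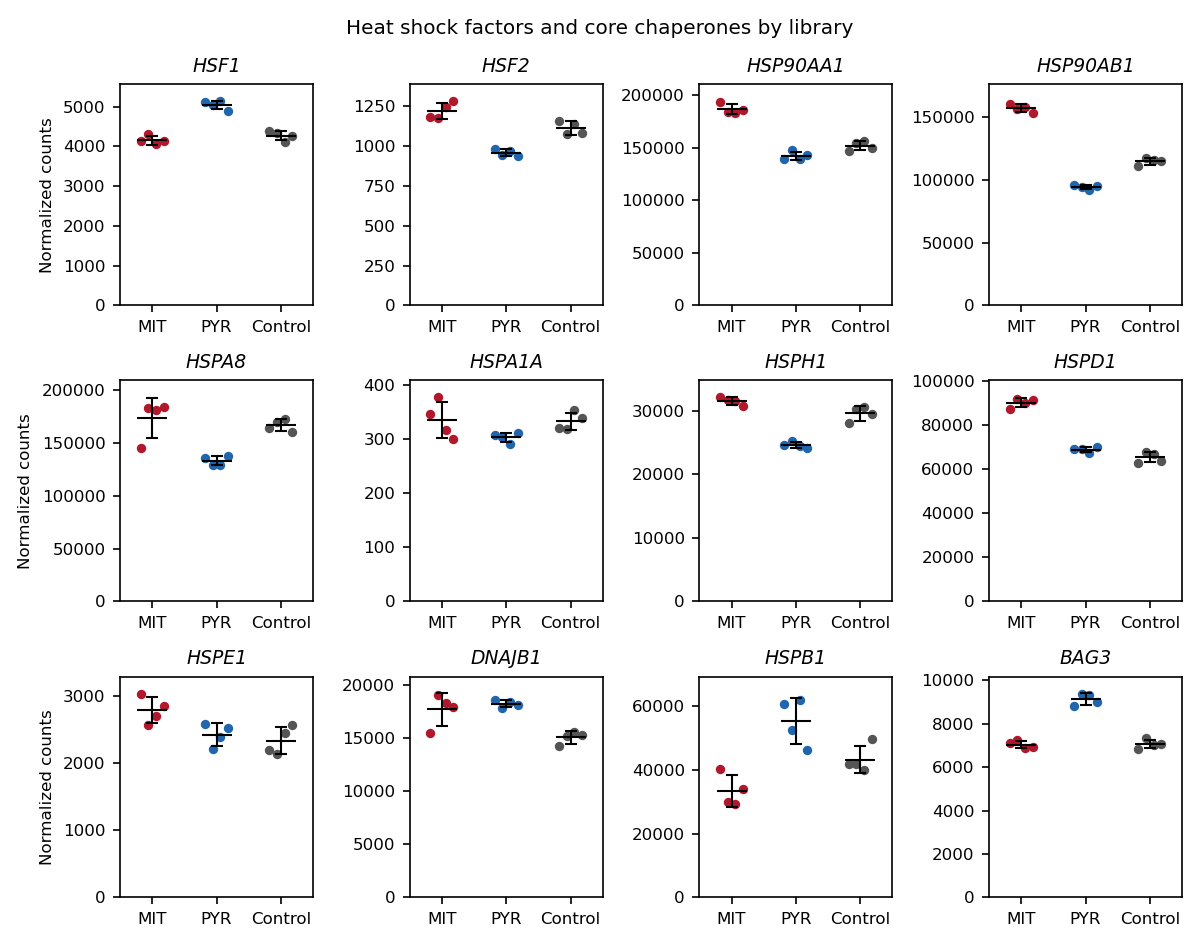
Normalized counts of the heat shock factors and core chaperones in each library under mitoxantrone, pyrimethamine and in the control (points; bars are mean ± SD, n = 4; each axis starts at 0). HSP90AB1, HSP90AA1 and HSPD1 stand highest under mitoxantrone, HSF1, BAG3 and HSPB1 have their highest means under pyrimethamine, and mitoxantrone replicate 1 of HSPA8, at 145373, lies below its group.

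Genes with HSPB names followed no common direction. Most encode small heat shock proteins, but HSPB11 does not. HSPB11 was lower under mitoxantrone and not called under pyrimethamine. Under each drug 80% of the HSPB genes were called, beside 69.3% of all genes tested for mitoxantrone and 53.3% for pyrimethamine. Of 5 kept, 1 was higher, 3 lower and 1 not called under mitoxantrone, and 2 were higher, 2 lower and 1 not called under pyrimethamine. HSPB1, which encodes HSP27 (chromosome 7, 76302544 to 76304295), held 40135, 29926, 29389.5 and 33905 normalized counts in the mitoxantrone libraries, 60566, 52417, 61935 and 46349.7 in the pyrimethamine libraries and 41697, 41706, 39882 and 49532 in the control libraries. Libraries varied within each group, and only the mitoxantrone and pyrimethamine ranges were separate. HSPB1 fell under mitoxantrone with -0.38 (SE 0.0903, adjusted p = 8.27e-04) and rose under pyrimethamine by 0.35 (SE 0.0903, adjusted p = 0.00242). HSPB3, best known from muscle (chromosome 5, 54455601 to 54456384), held 776, 620.1, 661 and 650.2 normalized counts in the mitoxantrone libraries, 2042, 2084, 2021 and 2208 in the pyrimethamine libraries and 1515, 1543, 1542 and 1676 in the control libraries. Here the groups were far apart, with mitoxantrone lowest and pyrimethamine highest. HSPB3 was 2.32-fold lower under mitoxantrone, -1.22 (SE 0.0626, adjusted p = 3.29e-13), and 1.33-fold higher under pyrimethamine, 0.41 (SE 0.0626, adjusted p = 9.67e-06).

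HSPB6, which encodes HSP20 (chromosome 19, 35754569 to 35758079), went against HSPB3, at low counts. It held 64, 91.6, 73 and 74.4 normalized counts in the mitoxantrone libraries, 16.9, 28.6, 24.6 and 20.8 in the pyrimethamine libraries and 53.3, 52.2, 37.4 and 60.6 in the control libraries. Pyrimethamine libraries lay below and mitoxantrone libraries above all control libraries. HSPB6 was 2.19-fold lower under pyrimethamine, -1.13 (SE 0.228, adjusted p = 2.48e-04). Its rise under mitoxantrone, 0.57 (SE 0.228, adjusted p = 0.0299), was lost without a filter on low values, after rescaling to equal totals, and without control replicate 3 or mitoxantrone replicate 2 or 4. Exons of another gene cover 38.2% of those of HSPB6. HSPB8, the partner of BAG3 in selective autophagy, fell under pyrimethamine with -0.23 and had -0.09 under mitoxantrone (adjusted p = 0.0511), a value called as lower in 8 alternatives, among them all 3 rescalings at -0.141 to -0.196. HSPB11, which despite its name encodes a subunit of the transport machinery of cilia, fell under mitoxantrone with -0.56 and had -0.03 under pyrimethamine.

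Among DNAJA genes, the type with the domain layout of bacterial DnaJ, DNAJA2 and DNAJA3 rose and DNAJA1 fell under mitoxantrone, and DNAJA4 was called lower. DNAJA1, a farnesylated partner of HSPA8 in the cytosol, averaged 32979 ± 2311 normalized counts under mitoxantrone, 38966 ± 709 under pyrimethamine and 39852 ± 1062 in the control (SD, n = 4 each), and fell under mitoxantrone with -0.28 (SE 0.043, adjusted p = 7.97e-06). DNAJA2, its cytosolic relative, averaged 13796 ± 820.1 normalized counts under mitoxantrone, 10251 ± 140.2 under pyrimethamine and 11348 ± 545 in the control (SD, n = 4 each), and DNAJA3, the mitochondrial member of the family, averaged 10534 ± 573 normalized counts under mitoxantrone, 7175 ± 223 under pyrimethamine and 8091 ± 101 in the control (SD, n = 4 each). DNAJA2 and DNAJA3 rose under mitoxantrone by 0.28 and 0.38 and fell under pyrimethamine with -0.15 and -0.17. DNAJA4 lay at the edge of detection and passed the filter on low values only through pyrimethamine and control libraries, so that a lower value under mitoxantrone was favoured by the choice of genes. It had 2 reads over the mitoxantrone libraries, both in replicate 3, 68 reads over the pyrimethamine libraries and 46 over the control libraries. After normalization the mitoxantrone total was lower than the control total by a ratio of 21 (95% counting interval 5.51 to 179) and lower than the pyrimethamine total by a ratio of 33.3 (8.86 to 280), and these intervals cover counting error only.

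DNAJB genes were the group with most rises under pyrimethamine, with 5 of 9 higher, 2 lower and 2 not called. Of all genes tested, 26.4% were higher and 26.9% lower under pyrimethamine, and 33.5% and 35.8% under mitoxantrone. Between the drugs the shares were 36.9% and 39.5%. The DNAJB genes are few beside these shares. Under mitoxantrone 2 were higher, 4 lower and 3 not called, and between the drugs 2 were higher and 6 lower under mitoxantrone and 1 not called. DNAJB1, the stress-inducible HSP40 (chromosome 19, 14514770 to 14529770), held 15556, 19063, 18354 and 17979 normalized counts in the mitoxantrone libraries, 18634, 17892, 18417 and 18189.5 in the pyrimethamine libraries and 14248, 15237, 15643 and 15364 in the control libraries. Pyrimethamine libraries lay above all control libraries, as did those under mitoxantrone except replicate 1. DNAJB1 was higher than the control under both drugs, with 0.23 (SE 0.0484, adjusted p = 2.91e-04) under mitoxantrone and 0.27 (SE 0.0484, adjusted p = 6.04e-05) under pyrimethamine. Between the drugs it had -0.05 (adjusted p = 0.377). Under quantile normalization DNAJB1 was called lower under mitoxantrone than under pyrimethamine, at -0.121 (limma adjusted p = 0.0272).

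DNAJB4 and DNAJB5, the closest relatives of DNAJB1, moved opposite ways under the drugs. DNAJB4 (chromosome 1, 77979175 to 78017964) held 1452, 1322, 1437 and 1447 normalized counts in the mitoxantrone libraries, 2673, 2823, 2649.8 and 2675 in the pyrimethamine libraries and 1790.4, 1889.5, 1958 and 1913 in the control libraries. DNAJB5 (chromosome 9, 34989641 to 34998900) held 507, 473, 547 and 456 normalized counts in the mitoxantrone libraries, 875, 893, 932 and 948 in the pyrimethamine libraries and 616, 601, 733 and 651 in the control libraries. For both genes the groups were separate, with pyrimethamine highest and mitoxantrone lowest. DNAJB4 rose under pyrimethamine by 0.52 (SE 0.0466, adjusted p = 6.96e-09) and fell under mitoxantrone with -0.42 (SE 0.0466, adjusted p = 7.53e-08). DNAJB5 rose under pyrimethamine by 0.49 (SE 0.075, adjusted p = 1.05e-05) and fell under mitoxantrone with -0.39 (SE 0.075, adjusted p = 9.53e-05). DNAJB2, a DNAJ protein with ubiquitin-binding motifs that is enriched in neurons (chromosome 2, 219279267 to 219286900), held 1567, 1717, 1679 and 1607 normalized counts in the mitoxantrone libraries, 4272, 4522, 4383 and 4039 in the pyrimethamine libraries and 3071, 3161, 3211 and 3463 in the control libraries. It showed the same order of groups: 1.96-fold lower under mitoxantrone, -0.97 (SE 0.0474, adjusted p = 1.36e-13), and 1.33-fold higher under pyrimethamine, 0.42 (SE 0.0474, adjusted p = 2.22e-07).

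Of the remaining DNAJB genes, DNAJB6, a suppressor of protein aggregation, rose under pyrimethamine by 0.29 and had 0.08 under mitoxantrone, a value called as higher in edgeR, in DESeq2 and without mitoxantrone replicate 1, and of the opposite sign with libraries rescaled to the same total. DNAJB11, a cochaperone of the endoplasmic reticulum lumen, averaged 8953 ± 409 normalized counts under mitoxantrone, 6753 ± 346 under pyrimethamine and 8826 ± 283 in the control (SD, n = 4 each), and fell under pyrimethamine with -0.39 (SE 0.042, adjusted p = 1.12e-07). DNAJB12 and DNAJB14 sit in the endoplasmic reticulum membrane, and they differed: DNAJB12 rose under mitoxantrone by 0.32 and fell under pyrimethamine with -0.38, whereas DNAJB14 fell under mitoxantrone with -0.17 and had 0.08 under pyrimethamine. The pyrimethamine value of DNAJB14 was called as higher in 4 alternatives, DESeq2 among them. DNAJB13, known from sperm and cilia, had at most 18.4 normalized counts in any library and passed the filter in the same way as DNAJA4, and its fall between the drugs, -1.75 (SE 0.678, adjusted p = 0.0241), was lost under quantile normalization and without pyrimethamine replicate 1 or 3 or mitoxantrone replicate 1.

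The 25 DNAJC genes are a mixed group whose members share the J domain and little else. Under pyrimethamine 13 were lower, 12 not called and 0 higher by limma. The share called was 52%, near the 53.3% of all genes tested, of which 26.4% were higher and 26.9% lower. At an unadjusted p under 0.05 the count of higher ones was 3, edgeR called 1 and DESeq2 2 higher, and 5 were higher with only the 8 libraries compared, 3 without mitoxantrone replicate 1 and 4 under quantile normalization. In the 5 alternatives just named, 4506 to 4965 of the 16950 genes tested were higher. The lower DNAJC genes numbered 11 to 14 over all alternatives. Under mitoxantrone 10 were higher, 8 lower and 7 not called, and between the drugs 13 were higher under mitoxantrone, 5 lower and 7 not called. The share called was 72% in both comparisons, beside 69.3% and 76.4% of all genes tested.

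DNAJC14, a protein of the endoplasmic reticulum membrane (chromosome 12, 55820960 to 55830824), held 2242, 2460.3, 2448 and 2311 normalized counts in the mitoxantrone libraries, 735, 883, 773 and 815 in the pyrimethamine libraries and 1256, 1240.1, 1155 and 1262 in the control libraries. Each mitoxantrone library lay far above and each pyrimethamine library below the control. DNAJC14 was 1.92-fold higher under mitoxantrone, 0.94 (SE 0.0585, adjusted p = 6.36e-12), and 1.53-fold lower under pyrimethamine, -0.62 (SE 0.0585, adjusted p = 1.52e-08). Exons of other genes cover 58.1% of those of DNAJC14, among them ORMDL2 and TMEM198B, and how shared reads were counted is not given in the sources used here. DNAJC17, a splicing-associated protein (chromosome 15, 40765155 to 40807478), held 797, 755, 800.3 and 733 normalized counts in the mitoxantrone libraries, 349.8, 337, 323 and 350.4 in the pyrimethamine libraries and 500.4, 554, 538 and 597 in the control libraries. It had the same order of groups, without overlap. DNAJC17 rose under mitoxantrone by 0.50 (SE 0.0727, adjusted p = 3.40e-06) and fell under pyrimethamine with -0.68 (SE 0.0727, adjusted p = 8.62e-08), and other genes cover 26.1% of its exons.

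DNAJC21 and DNAJC2 act at the ribosome, the first in its assembly and the second beside the nascent chain together with HSPA14. DNAJC21 (chromosome 5, 34929559 to 34958964) held 12019, 12585, 12481 and 12520.4 normalized counts in the mitoxantrone libraries, 7284, 8145, 7699 and 7586 in the pyrimethamine libraries and 8827, 8337, 8872 and 8706 in the control libraries. Mitoxantrone libraries were far above the control, and pyrimethamine libraries were all below it. DNAJC21 rose under mitoxantrone by 0.51 (SE 0.0374, adjusted p = 8.67e-11) and fell under pyrimethamine with -0.18. DNAJC2 averaged 4629.8 ± 302 normalized counts under mitoxantrone, 2960.0 ± 163 under pyrimethamine and 3509.7 ± 122 in the control (SD, n = 4 each), with 0.40 under mitoxantrone and -0.25 under pyrimethamine, both called. DNAJC27, which joins a Rab-like GTPase to a J domain (chromosome 2, 24943636 to 24972094), held 289, 238, 299 and 265 normalized counts in the mitoxantrone libraries, 161, 139, 148 and 114 in the pyrimethamine libraries and 154, 171, 192 and 187 in the control libraries. Mitoxantrone libraries were the highest, and pyrimethamine and control libraries overlapped. DNAJC27 rose under mitoxantrone by 0.63 (SE 0.127, adjusted p = 1.67e-04). Its fall under pyrimethamine, -0.33 (SE 0.127, adjusted p = 0.0339), was lost without control replicate 2, 3 or 4 or pyrimethamine replicate 2 or 4.

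DNAJC12, DNAJC28 and DNAJC22 had the largest falls of this family under mitoxantrone. DNAJC12, a cochaperone of the aromatic amino acid hydroxylases (chromosome 10, 67796665 to 67838166), held 11.4, 7.63, 11.1 and 6.28 normalized counts in the mitoxantrone libraries, 93.5, 147, 103 and 173 in the pyrimethamine libraries and 97.3, 86.5, 102 and 77.7 in the control libraries. The highest mitoxantrone library lay several-fold under the lowest of the others. Not all mitoxantrone libraries reached 10, so DNAJC12 met the filter through the other groups, which favoured a lower value under mitoxantrone. DNAJC12 was 9.27-fold lower under mitoxantrone, -3.21 (SE 0.241, adjusted p = 1.40e-10), and -2.40 with a pseudocount of 10. Under pyrimethamine it had 0.47 (adjusted p = 0.11), which passed the test in edgeR, in DESeq2 and with only the 8 libraries compared.

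DNAJC28, a little-studied member (chromosome 21, 33485530 to 33491720), held 10.3, 20, 16.1 and 17 normalized counts in the mitoxantrone libraries, 70.3, 81.8, 78.8 and 79.9 in the pyrimethamine libraries and 58, 51.5, 64.4 and 58 in the control libraries. DNAJC22, a membrane protein with a J domain (chromosome 12, 49346917 to 49357546), held 606, 633, 694 and 617 normalized counts in the mitoxantrone libraries, 2028, 2188, 2128 and 2064 in the pyrimethamine libraries and 2036, 1876, 1826 and 1955 in the control libraries. In both, all mitoxantrone libraries lay below all others by more than the spread within any group. DNAJC28 fell under mitoxantrone with -1.84 (SE 0.223, adjusted p = 2.45e-07) and DNAJC22 with -1.59 (SE 0.0543, adjusted p = 4.76e-16). Under pyrimethamine DNAJC28 had 0.42 (adjusted p = 0.121) and DNAJC22 0.13 (adjusted p = 0.0514), and the DNAJC22 value passed the test in 10 alternatives, among them without mitoxantrone replicate 1 and in DESeq2.

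The other DNAJC genes are given by their log2 changes. DNAJC7, which moves clients between HSP70 and HSP90, rose under mitoxantrone by 0.33 and fell under pyrimethamine with -0.38. DNAJC19, of the mitochondrial import motor, rose under mitoxantrone by 0.42 and had 0.06 under pyrimethamine, and DNAJC24, of diphthamide synthesis, had 0.37 and 0.14 in the same order. DNAJC6, the auxilin that uncoats clathrin vesicles, fell under mitoxantrone with -0.71. DNAJC30, a mitochondrial protein, fell there with -0.31. DNAJC3, a cochaperone of the endoplasmic reticulum, fell under both drugs, with -0.28 under mitoxantrone and -0.30 under pyrimethamine, as did DNAJC1, an endoplasmic reticulum membrane protein, with -0.31 and -0.23, and DNAJC5, the cysteine string protein of vesicles, with -0.12 and -0.11. DNAJC18 fell under pyrimethamine with -0.35, DNAJC9, a histone chaperone, with -0.25, DNAJC13, of endosomes, with -0.17, and DNAJC11, of the mitochondrial inner membrane organizing system, with -0.11, where the last call was lost without control replicate 2 or pyrimethamine replicate 3. DNAJC4, DNAJC8, DNAJC16 and DNAJC25 were not called against the control under either drug in the values as deposited. DNAJC8 was called lower under pyrimethamine in 6 alternatives, edgeR among them, and under mitoxantrone with equal totals and with quantile normalization. Under pyrimethamine DNAJC25 was called higher in 3 alternatives, and DNAJC16 under quantile normalization. DNAJC10, a disulfide reductase of the endoplasmic reticulum, was called between the drugs only, with 0.16, a call lost in some alternatives. Without mitoxantrone replicate 1 it was called higher under mitoxantrone too.

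BAG proteins bind the ATPase domain of HSP70. BAG1, the founding member (chromosome 9, 33247820 to 33264720), held 4032, 4023, 4146 and 4006 normalized counts in the mitoxantrone libraries, 1454, 1461, 1411 and 1474 in the pyrimethamine libraries and 2397, 2369.8, 2404 and 2643 in the control libraries. The spread within groups was small and the groups were far apart. BAG1 was 1.65-fold higher under mitoxantrone, 0.72 (SE 0.0427, adjusted p = 2.91e-12), 1.69-fold lower under pyrimethamine, -0.76 (SE 0.0427, adjusted p = 6.95e-12), and 2.79-fold higher under mitoxantrone than under pyrimethamine. BAG3, the stress-inducible member that directs clients to autophagy (chromosome 10, 119651370 to 119677819), held 7108, 7234, 6864 and 6940.4 normalized counts in the mitoxantrone libraries, 8798, 9381, 9319 and 9005 in the pyrimethamine libraries and 6850.0, 7327, 7009.6 and 7086 in the control libraries. All pyrimethamine libraries lay above all others, and mitoxantrone and control libraries overlapped. BAG3 rose under pyrimethamine by 0.37 (SE 0.0355, adjusted p = 1.96e-08) and had -0.01 under mitoxantrone (adjusted p = 0.883). With libraries rescaled to the same total BAG3 was called lower under mitoxantrone, at -0.107 (limma adjusted p = 0.00993). BAG4, which restrains death receptors, rose under pyrimethamine by 0.32 and fell under mitoxantrone with -0.16. BAG6, of protein quality control at the ribosome exit, rose under mitoxantrone by 0.20. BAG5 had 0.10 under pyrimethamine (adjusted p = 0.024), a call lost after rescaling to equal totals and without any of control replicate 2 or 4 or pyrimethamine replicate 2, 3 or 4. BAG2, an inhibitor of the ubiquitin ligase CHIP, had -0.10 under mitoxantrone (adjusted p = 0.0392), a call that was lost in edgeR, without a filter on low values and without control replicate 3 or 4 or mitoxantrone replicate 1 or 3.

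**Figure D4:**
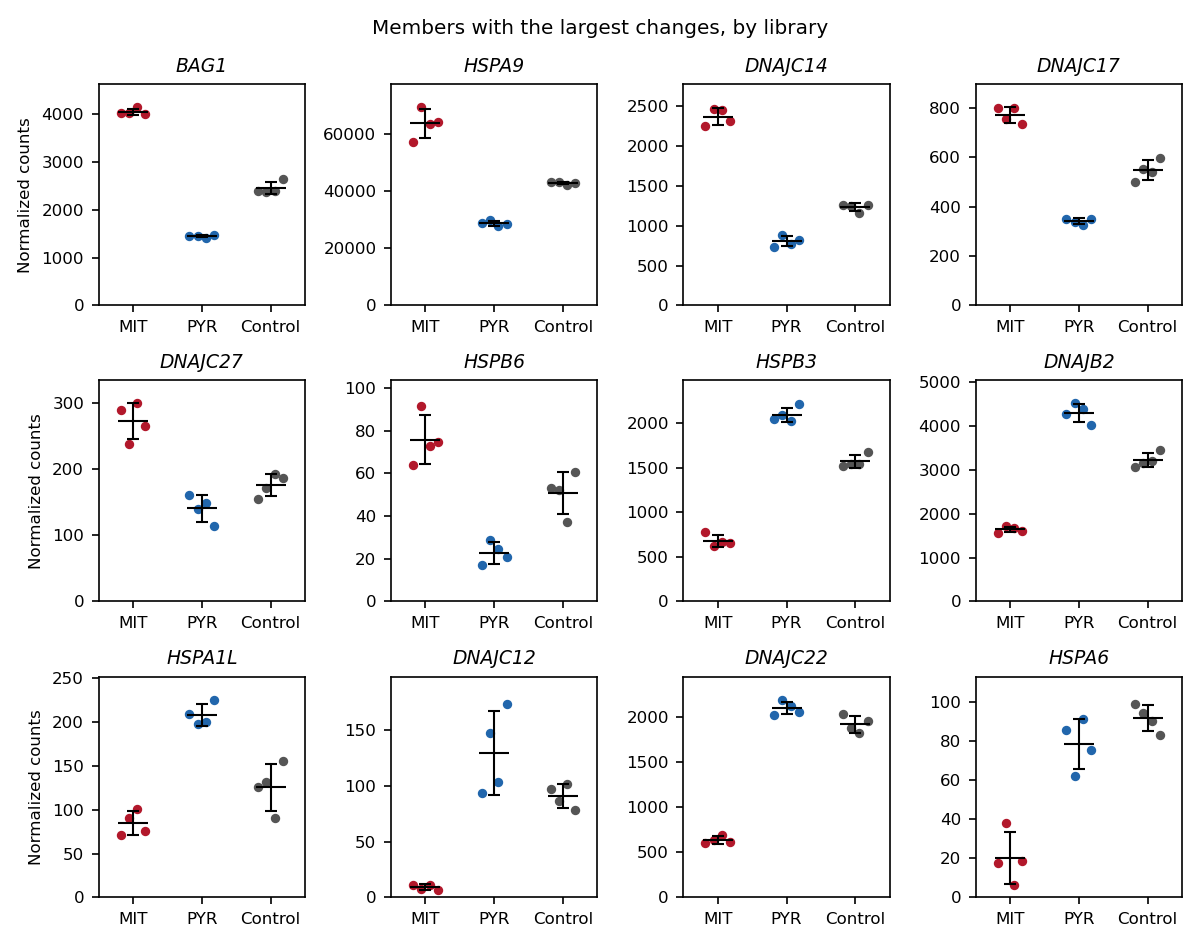
Normalized counts of 12 kept genes with large changes, in each library under mitoxantrone, pyrimethamine and in the control (points; bars are mean ± SD, n = 4; each axis starts at 0). BAG1, HSPA9, DNAJC14, DNAJC17, DNAJC27 and HSPB6 stand highest under mitoxantrone, while the mitoxantrone libraries are lowest for HSPB3, DNAJB2, DNAJC12, DNAJC22 and HSPA6.

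Genes that work with the set but lie outside its naming rule were counted in lists, and no list was tested as a set. Of all genes tested, 33.5% were higher and 35.8% lower under mitoxantrone, and 26.4% and 26.9% under pyrimethamine. Between the drugs 36.9% were higher under mitoxantrone and 39.5% lower. Of 19 HSP90 cochaperones and HSP70 partners, 10 were higher, 6 lower and 3 (ST13, AHSA1 and TTC4) not called under mitoxantrone (median log2 change 0.20), and 4 (CDC37, CHORDC1, CDC37L1 and TOMM34) were higher, 7 lower and 8 not called under pyrimethamine, with a median of -0.02. STUB1, the ubiquitin ligase CHIP, rose most under mitoxantrone, by 0.67, and CDC37, the kinase cochaperone of HSP90, fell most, with -0.43. Under pyrimethamine TOMM34, a cochaperone for mitochondrial import, rose most, by 0.44, and PPP5C, a phosphatase bound to HSP90, fell most, with -0.30. Between the drugs 12 were higher under mitoxantrone, 4 (CDC37, CDC37L1, TOMM34 and SUGT1) lower and 3 (FKBP5, ST13 and UNC45A) not called, led by STIP1, which links HSP70 to HSP90, with 0.69.

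Of 14 genes of the cytosolic chaperonin TRiC and its helper prefoldin, 8 were higher under mitoxantrone, 2 (PFDN1 and CCT3) lower and 4 (PFDN5, CCT7, PFDN6 and PFDN4) not called; their median log2 change was 0.15. Under pyrimethamine 3 (CCT7, TCP1 and PFDN1) were higher, 3 (CCT2, CCT3 and CCT5) lower and 8 not called, with a median of 0.01. Between the drugs 9 were higher under mitoxantrone, 3 (PFDN1, PFDN5 and CCT7) lower and 2 (CCT3 and PFDN6) not called, with CCT5 at 0.46 and PFDN1 at -0.49 as the extremes. The prefoldin subunit genes PFDN2 and PFDN1 marked the extremes under mitoxantrone, with 0.42 and -0.32. The shares of all genes tested were 33.5% higher and 35.8% lower under mitoxantrone, and 26.4% and 26.9% under pyrimethamine. Between the drugs they were 36.9% and 39.5%.

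Of 12 tested genes for mitochondrial chaperones and proteases, 8 were higher under mitoxantrone, 1 (SPG7) lower and 3 (CLPB, HTRA2 and HSCB) not called. Of all genes tested, 33.5% were higher and 35.8% lower there. The median log2 change of the 12 genes was 0.15. LONP1, the main protease of the matrix, rose by 1.51 (SE 0.059, adjusted p = 4.27e-15). Under pyrimethamine 6 were lower, 2 (GRPEL1 and HSCB) higher and 4 (CLPP, CLPB, YME1L1 and SPG7) not called, with a median of -0.07, and LONP1 fell with -0.60 (SE 0.059, adjusted p = 2.83e-08). GRPEL1, a nucleotide exchange factor of HSPA9, rose under pyrimethamine by 0.38. Between the drugs 8 were higher under mitoxantrone, led by LONP1 with 2.11, 3 (SPG7, HSCB and GRPEL1) lower and 1 (CLPB) not called. DNLZ, the zinc-finger partner of HSPA9, was listed too but did not pass the filter.

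Among 13 target genes of heat shock factors outside the naming rule, 6 were higher, 3 (CRYAB, AHSA1 and STIP1) lower and 4 not called under pyrimethamine (median log2 change 0.04). DEDD2 rose most there, by 0.43, and CRYAB, a small heat shock protein gene, fell most, with -0.19. Under mitoxantrone 5 were higher, 3 (CLU, SERPINH1 and UBB) lower and 5 (SQSTM1, DEDD2, ZFAND2A, CRYAB and AHSA1) not called, with a median of 0.03. STIP1 led the rises with 0.59, and CLU, a secreted chaperone, the falls with -0.66. Between the drugs 6 were higher under mitoxantrone, 5 (CLU, SERPINH1, DEDD2, UBB and ZFAND2A) lower and 2 (SQSTM1 and MRPL18) not called. The list shares CHORDC1, STIP1, AHSA1 and FKBP4 with the cochaperone list. Over all genes tested, 33.5% were higher and 35.8% lower under mitoxantrone and 26.4% and 26.9% under pyrimethamine. Between the drugs the shares were 36.9% and 39.5%.

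The 8 genes that were not kept were DNAJB3, DNAJB7, DNAJB8, DNAJC15, HSPA7, HSPB2, HSPB7 and HSPB9. DNAJC15, a mitochondrial protein, lay just outside the threshold, with 0 reads in every mitoxantrone library, 18.7, 10.8, 8.19 and 8.76 normalized counts in the pyrimethamine libraries and 0.935 to 5.27 in the control. With 0 reads taken as up to 3 reads over each library, it was at least 3.76-fold lower under mitoxantrone than under pyrimethamine. The other 7 had at most 10 reads in any group of 4 libraries. DNAJB13 and DNAJA4 were the kept genes closest to the threshold, with mean levels of 2.69 and 0.618 normalized counts under mitoxantrone, 10.3 and 16.7 under pyrimethamine and 9.33 and 10.98 in the control.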

How the data were processed

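RNA abundance per gene was measured in 12 libraries of KYSE70 cells, 4 per group. Per the submitters' processing notes, reads were handled with STAR 2.6.90c, featureCounts 1.5.1, cutadapt 1.12 and FastQC 0.11.5, with hg38 and mm10 named as builds; all gene identifiers were human, and the annotation, strand setting and treatment of reads shared between genes are not given in the sources used here. The deposited signal values are reads divided by 1 median-of-ratios factor per library, and 100.0% of them came back as whole reads within 0.01 read. This normalization removes differences in depth but sets levels relative to the median gene.

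From these, log2(value + 1) was tested with limma 3.58.1 (empirical Bayes with a mean-variance trend, all 12 libraries, group as the only term) over the 16950 genes that reached 10 in 4 or more libraries, with Benjamini-Hochberg adjustment and a threshold of 0.05. Fold changes on this scale understate changes of low genes. The fit was tested on simulated data. Alternatives were a pseudocount of 0.5 or 10, other filters, 3 rescalings, the 8 libraries of a comparison alone, a replicate block, each library left out, and edgeR 4.0.16 and DESeq2 1.42.0 on the recovered reads. Positions are from GENCODE 29 on GRCh38, and promoter windows from RefSeq on GRCh38.p14. Counting intervals are at 95%, and a count of 0 was taken as up to 3 reads.

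The members and lists were chosen with earlier results of these data known. Values in every library are given for 13 core genes (HSPA1B among them, though not a member) and, in each comparison, for the 6 largest rises and 6 largest falls among called members whose higher group averaged 50 or more. From the lists of partner genes, the largest rise and fall and the members of counts of 5 or fewer are named, except in counts that hold 1 gene that is not reported here.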

Additional observations from a re-analysis of the deposited data

Results flagged for a closer look

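In 204 groups of 4 libraries, 13 had a library far from the other 3 by Dixon's criterion (a gap that takes up most of the group's range); chance gives about 1 in 20. Under mitoxantrone these were replicate 1 of HSPA8 with 145373 normalized counts, of DNAJC9 with 6725 and of DNAJB14 with 4645, replicate 2 of DNAJB4 with 1322, and replicate 3 of DNAJA4 with 2.47, the other 3 libraries being at 0. Under pyrimethamine they were replicate 1 of BAG5 with 3992 and of DNAJC5 with 6072, replicate 2 of DNAJB4 with 2823 and replicate 4 of DNAJC30 with 1762. In the control they were replicate 4 of BAG1 with 2643, of DNAJC30 with 2020 and of HSPB3 with 1676, and replicate 2 of HSPB8 with 3381. HSPA8 replicate 1 lay below the 181409 to 183833 of the other mitoxantrone libraries, and its call without this library is given with the gene.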

How the results depend on the processing

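Of the calls made, 42 of 52 for mitoxantrone, 37 of 41 for pyrimethamine and 49 of 58 between the drugs were kept in every alternative run. Leaving out 1 library at a time gave 24 to 28 higher and 24 to 25 lower genes with a median of -0.0177 to 0.0284 for mitoxantrone, 11 to 19 higher and 26 to 30 lower with -0.0811 to -0.0439 for pyrimethamine, and 33 to 35 higher and 22 to 24 lower with 0.0893 to 0.1304 between the drugs. The median moved to -0.0869 (same total), -0.0326 (upper quartile) and -0.0556 (quantile) for mitoxantrone, to -0.1274 (same total) for pyrimethamine, and to 0.0808, 0.0671 and 0.0645 in the same order between the drugs. In the same order, the median of all genes tested was -0.108, -0.0539 and 0.039 for mitoxantrone. It was -0.0552 (same total) for pyrimethamine and -0.0672, -0.0809 and 0.0405 between the drugs. With only the 8 libraries compared, 21 kept genes were higher under pyrimethamine. Ranges below are over single left-out libraries and do not cover the rescalings. Directions turned for some genes. Among those with values in every library these were, for mitoxantrone, HSPA1A (-0.0948 same total, -0.0406 upper quartile, -0.0118 and -0.0135 without control replicate 1 or 2, -0.0104 and -0.0537 without mitoxantrone replicate 1 or 2, in a range up to 0.0559 over single left-out libraries), HSPA8 (-0.0522 same total, -0.26 quantile), HSPH1 (-0.0081 same total, -0.0840 quantile), HSPA4L (-0.00114 same total) and BAG3 (0.0111 without control replicate 2, 0.0055 and 0.0002 without mitoxantrone replicate 3 or 4, in a range down to -0.0213). For pyrimethamine these were HSPA1B (0.0006 upper quartile, 0.0006 and 0.0105 without control replicate 3 or 4, 0.0096 without pyrimethamine replicate 4, in a range down to -0.0295), HSPD1 (-0.0306 quantile) and HSPE1 (-0.0010 same total). Between the drugs it was DNAJB1 (0.0141 without mitoxantrone replicate 1, in a range down to -0.0837). Of the other kept genes, none of them called as deposited in that comparison, BAG5, DNAJB6, DNAJB11, DNAJC4, DNAJC9, DNAJC10, DNAJC11, DNAJC16 and DNAJC25 turned for mitoxantrone in at least 1 alternative, BAG2, DNAJB13 (0.417 as deposited, -0.228 without control replicate 3), DNAJC4, DNAJC6 and HSPB11 for pyrimethamine, and DNAJC3, DNAJC4, DNAJC5, DNAJC8 and DNAJC16 between the drugs. The causes were not tested. Replicate numbers did not pair the libraries (correlations of deviations -0.13 to 0.121); the fit with a replicate block gave 27 higher and 24 lower for mitoxantrone, 14 and 28 for pyrimethamine and 34 and 23 between the drugs, and lost the BAG2 call under mitoxantrone (adjusted p = 0.051). Depth limits DNAJA4, DNAJB13, DNAJC12, DNAJC28, HSPA6 and HSPB6, which had 2, 11, 35, 63, 83 and 91 reads in their lowest group.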

Other observations

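The kept genes were also sorted by the compartment of their proteins, from general knowledge and after the values were seen, so the counts are a description. Of 7 genes for mitochondrial proteins (HSPA9, HSPD1, HSPE1, DNAJA3, DNAJC11, DNAJC19 and DNAJC30), 5 were higher, 1 lower and 1 not called under mitoxantrone, with a median log2 change of 0.38, and 0 were higher, 3 lower and 4 not called under pyrimethamine by limma, although their median there was 0.06. Of 11 genes for proteins of the endoplasmic reticulum (HSPA13, DNAJB11, DNAJB12, DNAJB14, DNAJC1, DNAJC3, DNAJC10, DNAJC14, DNAJC16, DNAJC18 and DNAJC25), 4 were higher, 3 lower and 4 not called under mitoxantrone, and 0 were higher, 6 lower and 5 not called under pyrimethamine, with a median of -0.23. Of the other 50, 18 were higher and 21 lower under mitoxantrone, and 13 higher and 19 lower under pyrimethamine. Over all genes tested, 33.5% were higher and 35.8% lower under mitoxantrone, and 26.4% and 26.9% under pyrimethamine. Other kept genes of these compartments may be missing from the lists. Whether the compartments differ was not tested.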
